A study of Homo sapiens with 24 samples.

Results

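Astrocyte and neural stem identity genes are the 10 genes GFAP, VIM, NES, SOX2, SOX9, SLC1A3, GLUL, CD44, NFIA and FABP7. They were found by Ensembl identifier among the 60675 genes of the deposited table, and all 10 had an entry. The RNA came from SW1783, an established line of human astrocytoma cells that all groups share, so the values concern this line alone. Cells were kept for 24 h with WESF, a hot water extract of Schisandrae Fructus (the dried fruit of a magnolia vine), at 20, 100 or 500 µg/mL, or with EESF, an extract of the same fruit in aqueous ethanol, at 12.4, 62 or 310 µg/mL. Each extract had a vehicle group of its own that received the solvent DMSO. Vehicle A belonged to the WESF batch and vehicle B to the EESF batch. By the study's methods the high dose of EESF was set at its IC20 (20% inhibition) from a cytotoxicity screen, and the high dose of WESF was not toxic. Each of the 8 groups had 3 libraries, 24 in all, with totals of 18727797 to 32567395 counts per library. Vehicle B was the shallowest group (18727797 to 20465712) and the high dose of EESF the deepest (29659110 to 32567395). The labels do not say whether the 3 libraries of a group came from separate cultures, so p-values measure the spread between these libraries, which may be technical.

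Astrocytes are the star-shaped support cells of the brain. They take up glutamate released by neurons, convert it to glutamine and carry a cytoskeleton of intermediate filaments, of which glial fibrillary acidic protein is the classical marker. Neural stem and radial glial cells share part of this programme, with vimentin, nestin, SOX2 and brain lipid binding protein among their marks, and the factors SOX9 and NFIA act early in the formation of astrocytes. Astrocytoma cells in culture often keep only some of these genes.

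In SW1783, 7 of the 10 genes had enough counts to be tested and 3 were at or near zero in every group. Levels were compared between genes as CPM (counts scaled to a common library size, normalized by TMM) per kilobase of the canonical transcript, because a long transcript yields more fragments. VIM (vimentin, a filament protein) on chr10:17228241-17237593 was the most abundant, at 2238 ± 23.1 CPM per kb in vehicle A and 2285 ± 7.77 in vehicle B (SD, n = 3). It stood at rank 15 of the 13516 genes that passed the filter on low counts over all libraries, and it took 0.452% to 0.535% of the protein-coding counts of a library. CD44 (the cell surface receptor for hyaluronan) on chr11:35138882-35232402 followed at 522 ± 20.7 and 533 ± 19.3 CPM per kb, ranks 96 and 94, with 0.171% to 0.3% of the counts.

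SOX9 (a transcription factor) on chr17:72121020-72126416 had 20.8 ± 1.13 CPM per kb in vehicle A and 21.9 ± 1.71 in vehicle B. SLC1A3 (the glial glutamate transporter EAAT1, also called GLAST) on chr5:36596588-36688334 had 8.11 ± 0.425 and 8.10 ± 0.266. GLUL (glutamine synthetase) on chr1:182378098-182392206 had 8.10 ± 0.178 and 8.05 ± 0.0831. SLC1A3 and GLUL were neighbours in the order and did not differ beyond their spread. With the summed length of all annotated exons in place of the canonical transcript GLUL came before SLC1A3, at 4.84 against 1.496 CPM per kb in vehicle A. NES (nestin, the filament protein of neural progenitors) on chr1:156668763-156677407 had 1.31 ± 0.153 and 1.21 ± 0.154 CPM per kb. NFIA (a nuclear factor I transcription factor) on chr1:60865259-61462788 was the lowest of the tested genes at 0.817 ± 0.0351 and 0.851 ± 0.0838. All positions are in GRCh38 and cover the whole gene, exons and introns together. VIM, SOX9, SLC1A3, CD44, NFIA and FABP7 lie on the plus strand together with SOX2, and GFAP, NES and GLUL on the minus strand.

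The 3 genes that could not be tested were GFAP, SOX2 and FABP7. GFAP (chr17:44903159-44916937) had 0 to 10 counts in a library and 105 over all 24 libraries, SOX2 (a stem cell transcription factor, chr3:181711925-181714436) had 0 to 2 and 10 in all, and FABP7 (brain lipid binding protein, chr6:122779716-122784074) had a single count in each of 2 libraries. Over all libraries GFAP came to 0.179 CPM, SOX2 to 0.017 and FABP7 to 0.0034 CPM. The limit that a count of 0 allows over all libraries together (3 counts) is 0.0051 CPM, so FABP7 was not detected above it. SOX2 lay above that limit in the pooled libraries but had a count in only 9 of the 24. These limits and the intervals given for these genes cover counting error only.

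Promoter sequence is shown for 4 of the genes, NES, SLC1A3 and CD44 because they fell together at the high doses, and VIM because it did not. Each is the 150 bases before an annotated start in RefSeq (GRCh38.p14), 5′ to 3′ on the strand of the gene, with capitals at each match, on either strand, to 5 short motifs. These are the GC box GGGCGG, the CAAT box with the letters CCAAT, the TATA box as TATAAA, the AP-1 motif written TGANTCA and the SOX core ACAAAG. The NES stretch is chr1:156677408-156677557 (minus strand), the SLC1A3 stretch chr5:36606804-36606953, the CD44 stretch chr11:35139021-35139170 and the VIM stretch chr10:17228091-17228240 (plus strand for all 3).
NES: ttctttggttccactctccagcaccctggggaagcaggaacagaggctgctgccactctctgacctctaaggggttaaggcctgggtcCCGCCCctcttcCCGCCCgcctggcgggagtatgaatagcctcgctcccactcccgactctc
SLC1A3: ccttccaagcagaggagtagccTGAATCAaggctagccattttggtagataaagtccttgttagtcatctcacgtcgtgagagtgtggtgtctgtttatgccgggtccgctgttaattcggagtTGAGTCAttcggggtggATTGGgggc
CD44: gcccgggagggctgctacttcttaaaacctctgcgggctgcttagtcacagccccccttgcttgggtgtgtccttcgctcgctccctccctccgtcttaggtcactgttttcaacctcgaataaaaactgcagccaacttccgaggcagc
VIM: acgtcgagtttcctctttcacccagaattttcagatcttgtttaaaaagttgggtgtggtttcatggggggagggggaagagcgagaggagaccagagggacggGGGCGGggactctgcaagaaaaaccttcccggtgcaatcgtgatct
The NES stretch holds 2 GC boxes, the VIM stretch 1, the SLC1A3 stretch 2 matches to TGANTCA and 1 to CCAAT, and the CD44 stretch none of the 5 motifs. SLC1A3 has 3 starts in the table, and the stretches before the other two, chr5:36596438-36596587 and chr5:36606456-36606605, hold none of the 5 motifs. The one printed was picked with its matches known, by no rule, so its motifs do not stand for the gene as a whole.

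Start sites in the RefSeq table were matched for 8 of the 10 genes, all but GFAP and SOX9, and gave 13 windows of 300 bases (250 before to 50 after the start). GGGCGG was in 9 of the 13 windows and in 45.0% of all 35116 windows of the table. CCAAT was in 5 of 13 (34.6% of all windows), ACAAAG in 3 of 13 (16.1%), TGANTCA in 1 of 13 (7.71%) and TATAAA in 0 of 13 (11.5%). The only window with TGANTCA was the SLC1A3 one printed here. These are matches of letters, and no binding was measured.

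The labelled cell type was checked against other markers. Of 20 further astrocyte markers, GJB6 was at 0 in every library and 9 in all, among them AQP4, ALDH1L1, S100B, NDRG2, MLC1, SLC7A10 and SPARCL1, stayed under 10 counts in every library. AQP4 is the astrocyte water channel, ALDH1L1 a folate enzyme used as a pan-astrocyte marker and S100B a calcium-binding protein of astrocytes. The most abundant gene of that list was CST3 (cystatin C), with 138 CPM per kb in vehicle A, followed by GJA1 (connexin 43) at 66.3 and CLU (clusterin) at 39.6. Of 19 further neural stem markers 7 stayed under 10 counts, among them PROM1, MSI1, SOX1 and OLIG1, and the most abundant was TNC (tenascin C), a matrix glycoprotein. By contrast, none of 18 mesenchymal markers stayed under 10 counts. TGFBI led these at 1806 CPM per kb in vehicle A, and COL1A1 was at 642. GFAP, AQP4, ALDH1L1 and S100B, all used as astrocyte markers, were at or near 0 in a line labelled astrocytoma. Of the 20 further astrocyte markers, however, 10 passed the filter on low counts over all libraries. The astrocyte markers thus did not go one way, and the 10 genes are called here by their names only. Among other brain cells, 8 of 10 microglial markers, 4 of 10 oligodendrocyte markers and 5 of 12 neuronal markers stayed under 10 counts. Of the endothelial and the epithelial list, 4 of 8 markers each stayed under 10 counts.

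**Figure D1:**
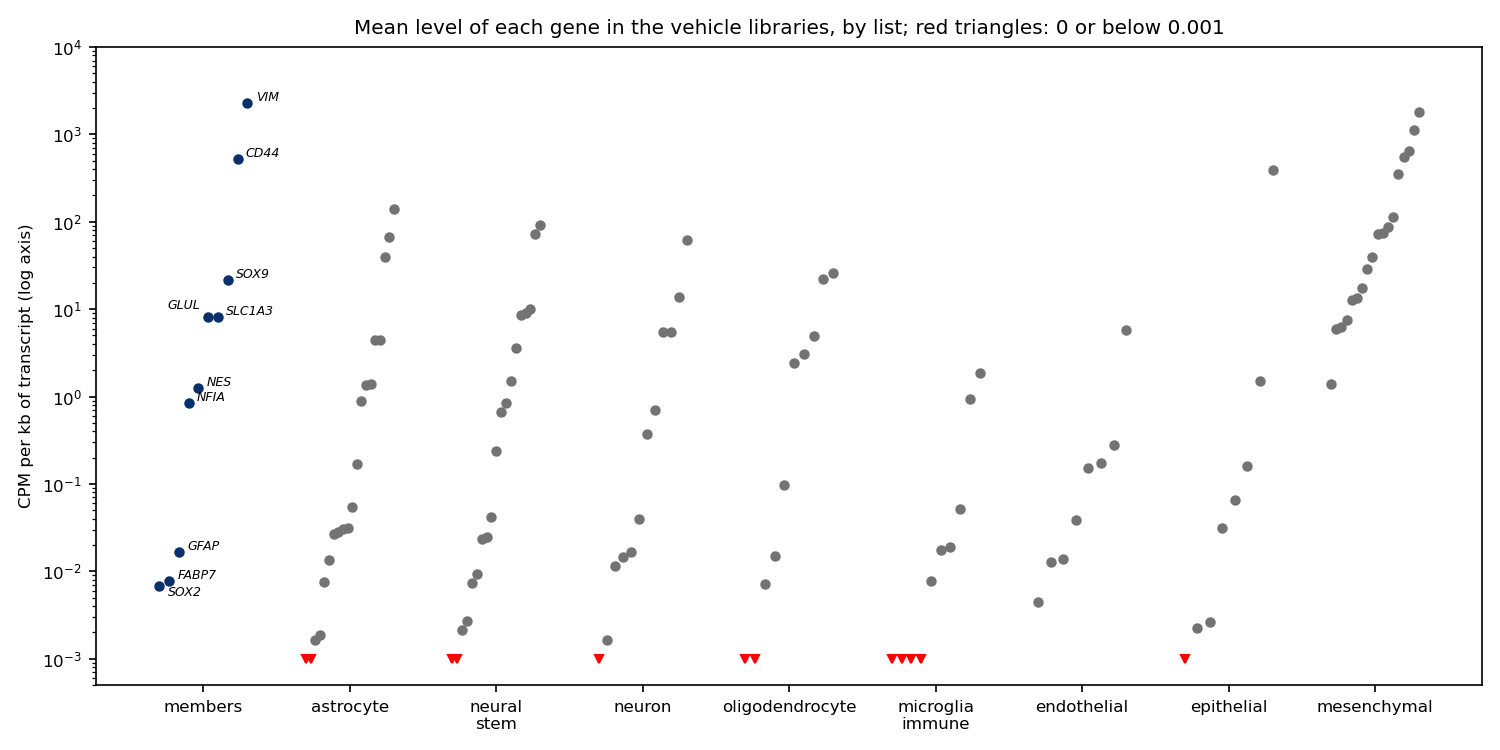
Mean level of each gene in the vehicle libraries, in CPM per kb of canonical transcript on a log axis, with each point the mean of the vehicle A and vehicle B means and red triangles for genes at 0 or below 0.001. VIM and CD44 sit at the top of the 10 genes, GFAP, FABP7 and SOX2 at the bottom, and no mesenchymal marker lies below 1 CPM per kb.

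VIM kept nearly the same level in all 8 groups. Its CPM was 4876, 4780 and 4807 in vehicle A, 4531, 4826 and 4666 at 20 µg/mL WESF, 4842, 4868 and 4845 at 100 µg/mL and 4910, 4713 and 4767 at 500 µg/mL. It was 4941, 4913 and 4912 in vehicle B, 4930, 4767 and 4791 at 12.4 µg/mL EESF, 4912, 5082 and 5039 at 62 µg/mL and 5058, 5406 and 5373 at 310 µg/mL. The libraries of the WESF batch overlapped throughout, while the 3 libraries at 310 µg/mL EESF lay above those of vehicle B. The log2 fold change was -0.01 (SE 0.043, edgeR adjusted p = 0.875) at the high dose of WESF and 0.10 (SE 0.0475, adjusted p = 0.0857) at the high dose of EESF, and neither passed. The 95% interval was -0.0992 to 0.0827 for WESF. The change under EESF passed in 2 of its alternatives, without replicate 1 of the high dose (0.13) and with all groups of the batch in the fit (0.10).

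NES fell at both high doses. Its CPM was 6.64, 6.98 and 8.26 in vehicle A, 6.82, 7.12 and 7.54 at 20 µg/mL WESF, 5.74, 6.45 and 5.82 at 100 µg/mL and 2.63, 4.09 and 2.80 at 500 µg/mL. It was 6.86, 5.83 and 7.54 in vehicle B, 6.17, 6.22 and 7.51 at 12.4 µg/mL EESF, 5.47, 6.17 and 6.48 at 62 µg/mL and 5.27, 4.86 and 4.65 at 310 µg/mL. All libraries at 500 µg/mL WESF, and all at 310 µg/mL EESF, were below their vehicle libraries, and those at 100 µg/mL WESF were below too, by a small margin. The change was -1.21 on the log2 scale (SE 0.151, edgeR adjusted p = 1.79e-06) or -56.8% for WESF, and -0.45 (SE 0.119, adjusted p = 0.00612) or -26.8% for EESF. At 100 µg/mL WESF it was -0.28 (SE 0.108, adjusted p = 0.155) and did not pass. In bulk RNA, fewer cells that express a gene and less of its RNA per cell cannot be told apart, here and for every gene below.

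GFAP stayed at a few counts everywhere. The counts were 6, 3 and 3 in vehicle A, 7, 5 and 4 at 20 µg/mL WESF, 3, 2 and 3 at 100 µg/mL and 8, 5 and 5 at 500 µg/mL. They were 1, 0 and 1 in vehicle B, 5, 1 and 3 at 12.4 µg/mL EESF, 8, 2 and 4 at 62 µg/mL and 8, 10 and 8 at 310 µg/mL. Vehicle B was the lowest group and the high dose of EESF the highest. As a ratio of pooled CPM, the high dose of EESF over vehicle B was 8.24 with an exact 95% interval for counting error of 2.06 to 71.7, and the ratio of vehicle A to vehicle B was 4.24 (0.944 to 39.0), although both received DMSO. Against the low dose of EESF the ratio of the high dose was 2.25 (1.02 to 5.47), and vehicle A against 500 µg/mL WESF gave a ratio (dose over vehicle) of 1.81 (0.824 to 4.12). When all genes were fitted with no filter on low counts, GFAP passed at the high dose of EESF (log2 fold change 2.87, SE 0.78, edgeR adjusted p = 0.00578) and in none of the other 9 comparisons. The genes CCDC103 and FAM187A overlap GFAP on the other strand with 9.75 to 44 and 26.9 to 73.9 counts per library, more than GFAP has, and the strand setting of the counting is not given in the sources used here, so reads of the 3 genes could be confused.

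**Figure D2:**
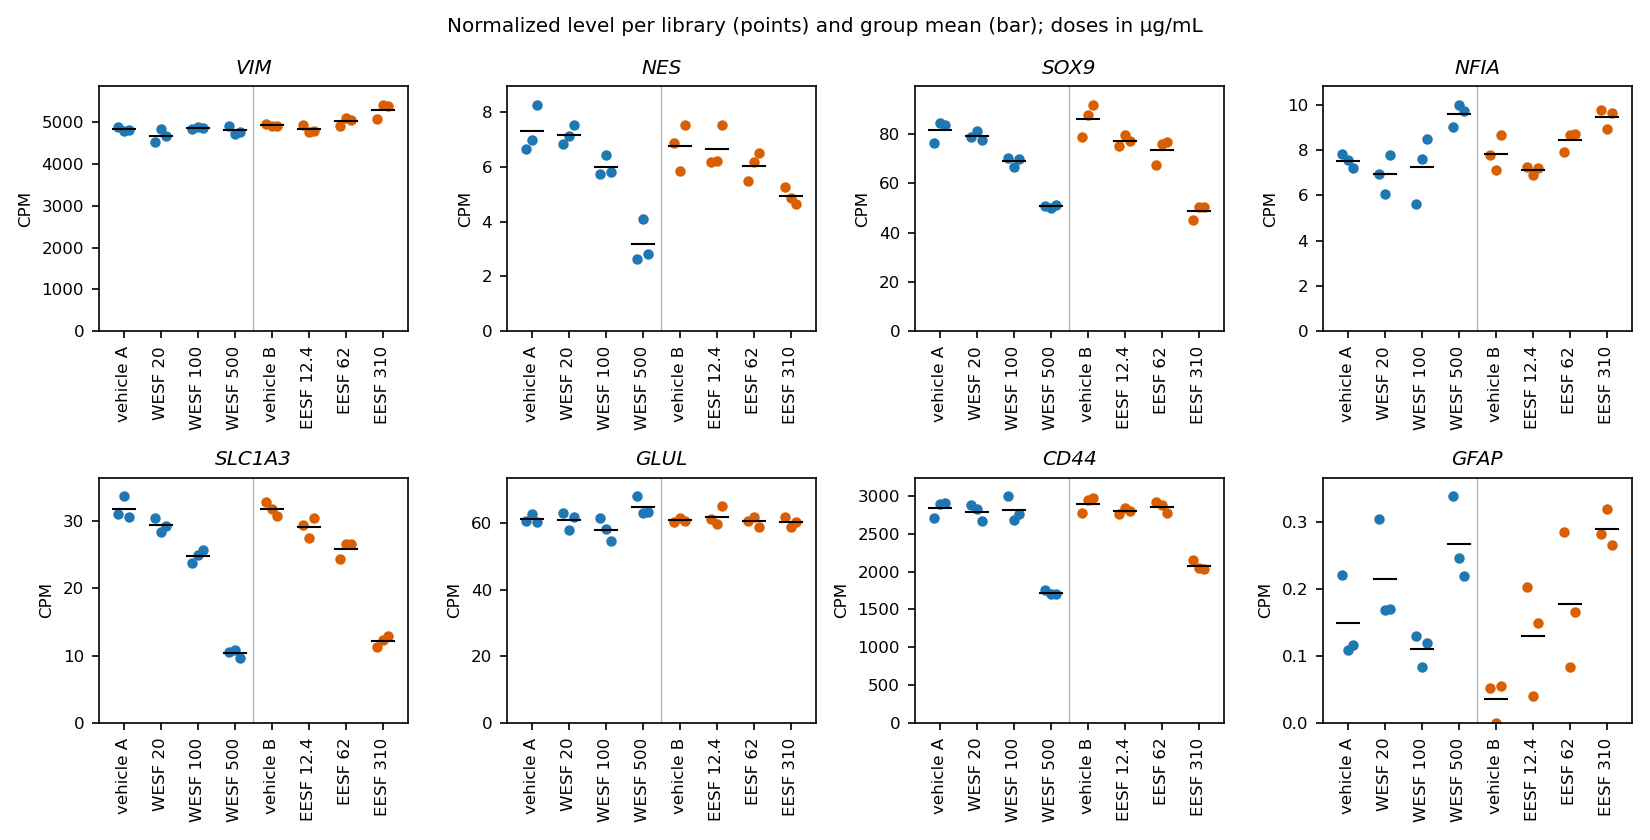
Level of 8 of the 10 genes in each of the 24 libraries, in CPM on linear axes that start at 0, with points for libraries, black bars for the means of 3, blue for vehicle A and WESF and orange for vehicle B and EESF, doses in µg/mL. SLC1A3, SOX9, CD44 and NES are lowest at the highest dose of each extract, VIM and GLUL are level, and GFAP stays at or below 0.339 CPM.

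SOX9 fell with dose under both extracts. Its CPM was 76.6, 84.7 and 83.7 in vehicle A, 78.9, 81.3 and 77.4 at 20 µg/mL WESF, 70.5, 66.8 and 69.8 at 100 µg/mL and 50.9, 49.97 and 51.4 at 500 µg/mL. It was 78.8, 87.7 and 91.9 in vehicle B, 75.3, 79.7 and 77.05 at 12.4 µg/mL EESF, 67.6, 76.1 and 76.8 at 62 µg/mL and 45.1, 50.5 and 50.5 at 310 µg/mL. The medium and high doses lay below the vehicle libraries without overlap in both batches, and the low doses overlapped them. The high dose gave a log2 fold change of -0.69 (SE 0.0508, edgeR adjusted p = 3.1e-09) for WESF and -0.82 (SE 0.0706, adjusted p = 1.38e-06) for EESF, or -37.9% and -43.4%. The medium dose gave -0.24 (SE 0.0496, adjusted p = 0.0151) and -0.23 (SE 0.0624, adjusted p = 0.0224). The medium dose step was small, and single libraries decided its calls. The WESF call was lost without vehicle A replicate 2 (-0.22) or without replicate 2 (-0.22) or 3 (-0.25) of the dose, and the EESF call without vehicle B replicate 2 (-0.21) or 3 (-0.18) or replicate 1 of the dose (-0.17). With the replicate number as a block the WESF call was lost as well (-0.24, edgeR adjusted p = 0.0542). At the low dose of EESF the change was -0.16 (SE 0.0563, adjusted p = 0.0852), and -0.23 without vehicle B replicate 1, which passed. With the block this change passed too (-0.16, edgeR adjusted p = 0.0444). SOX9-AS1, an antisense gene, had 2 to 16 counts per library.

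NFIA was the only one of the 7 tested genes that rose against the vehicle. Its CPM was 7.85, 7.56 and 7.21 in vehicle A and 9.02, 10.0 and 9.72 at 500 µg/mL WESF, against 7.78, 7.11 and 8.65 in vehicle B and 9.76, 8.95 and 9.64 at 310 µg/mL EESF. The high dose libraries were above the vehicle libraries in both batches. The change was 0.34 on the log2 scale (SE 0.0885, edgeR adjusted p = 0.00246) for WESF and 0.27 (SE 0.0966, adjusted p = 0.0303) for EESF, both short of 1.5-fold. The EESF call was lost in DESeq2 (0.26) and without vehicle B replicate 1 (0.25) or 2 (0.19) or replicate 1 (0.24) or 3 (0.25) of the high dose, with adjusted p up to 0.157 over its alternatives. Compared with the low dose of the same batch NFIA was higher by 0.47 (SE 0.105, adjusted p = 0.0011) and 0.41 (SE 0.0827, adjusted p = 0.00094). At the low and medium doses it ranged over libraries from 5.61 to 8.72 CPM, and no change against the vehicle passed. SOX2 had 0, 3, 3 and 1 counts summed over the libraries of vehicle A and of 20, 100 and 500 µg/mL WESF, and 2, 0, 1 and 0 over those of vehicle B and of 12.4, 62 and 310 µg/mL EESF. No group summed to more than the 3 counts of the detection limit.

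SLC1A3 fell the most of the tested genes. Its CPM was 31.0, 33.7 and 30.6 in vehicle A, 30.5, 28.3 and 29.3 at 20 µg/mL WESF, 23.8, 24.9 and 25.7 at 100 µg/mL and 10.6, 10.8 and 9.64 at 500 µg/mL. It was 32.8, 31.8 and 30.7 in vehicle B, 29.4, 27.6 and 30.5 at 12.4 µg/mL EESF, 24.4, 26.6 and 26.6 at 62 µg/mL and 11.2, 12.3 and 12.9 at 310 µg/mL. Every dose lay below its vehicle libraries without overlap, by a small margin at the low doses. The log2 fold change at the high dose was -1.62 (SE 0.0694, edgeR adjusted p = 4.06e-12) for WESF and -1.39 (SE 0.0707, adjusted p = 3.07e-08) for EESF, or -67.5% and -61.7%. At the medium dose it was -0.36 (SE 0.058, adjusted p = 0.0055) and -0.30 (SE 0.0601, adjusted p = 0.0044), short of 1.5-fold. The low doses gave -0.11 (SE 0.0597, adjusted p = 0.999) and -0.13 (SE 0.0562, adjusted p = 0.145), and neither passed.

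GLUL, which converts the glutamate taken up by SLC1A3 to glutamine, showed no change that passed at any dose. Its CPM was 60.6, 62.8 and 60.3 in vehicle A and 68.0, 62.9 and 63.3 at 500 µg/mL WESF, against 60.4, 61.5 and 60.6 in vehicle B and 61.7, 58.7 and 60.3 at 310 µg/mL EESF. Over all 24 libraries it ranged from 54.5 to 68.0. The libraries at 500 µg/mL WESF were just above those of vehicle A, and all other doses overlapped their vehicle. The log2 fold change was 0.08 (95% interval -0.0213 to 0.181, edgeR adjusted p = 0.149) at the high dose of WESF and -0.01 (-0.126 to 0.0971, adjusted p = 0.824) at that of EESF.

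CD44 fell at the highest dose of each extract and not below it. Its CPM was 2707, 2890 and 2912 in vehicle A, 2873, 2827 and 2674 at 20 µg/mL WESF, 2993, 2682 and 2765 at 100 µg/mL and 1754, 1708 and 1705 at 500 µg/mL. It was 2776, 2943 and 2969 in vehicle B, 2754, 2837 and 2803 at 12.4 µg/mL EESF, 2924, 2876 and 2776 at 62 µg/mL and 2149, 2042 and 2039 at 310 µg/mL. The high dose libraries were far below all others of their batch, and the other doses overlapped the vehicle. The change was -0.72 on the log2 scale (SE 0.0455, edgeR adjusted p = 4.42e-10) or -39.3% for WESF, and -0.48 (SE 0.05, adjusted p = 6.11e-06) or -28.3% for EESF. At the medium dose WESF gave a log2 fold change of -0.01 (adjusted p = 0.909), and EESF gave -0.02 (adjusted p = 0.864). FABP7 had its 2 counts in vehicle A replicate 2 and in replicate 1 of 12.4 µg/mL EESF, and none in the other 22 libraries.

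**Figure D3:**
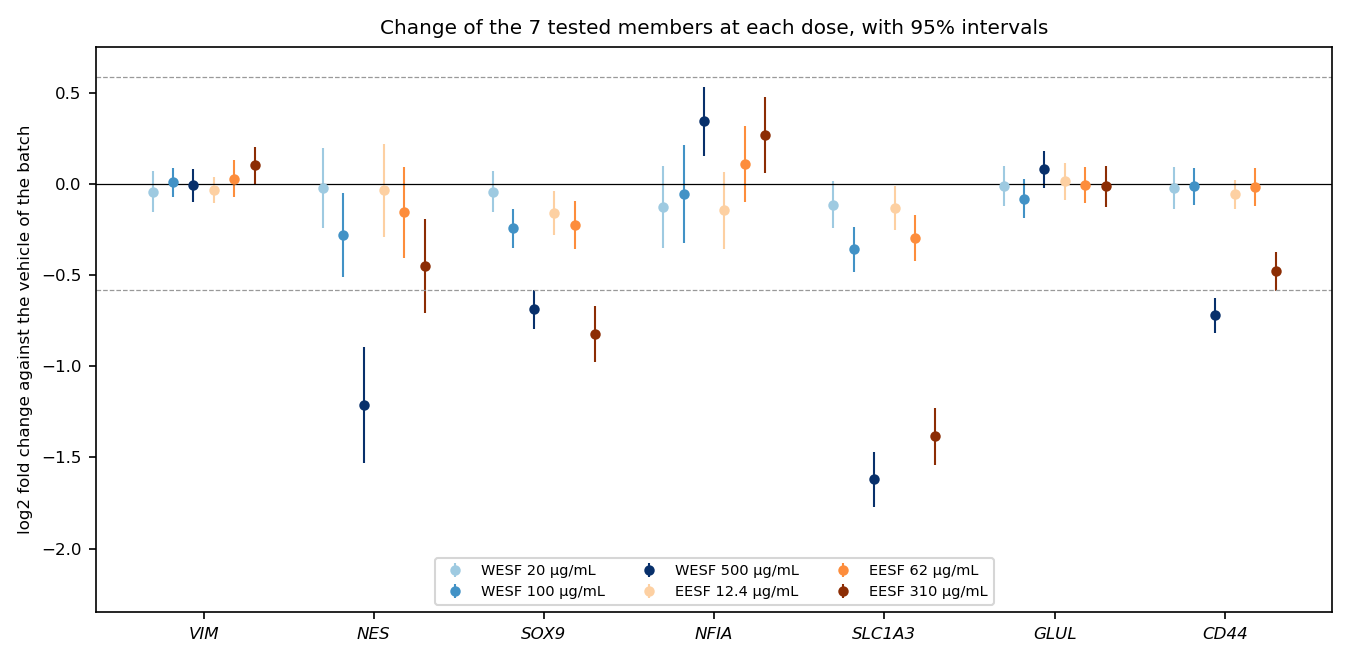
Log2 fold change against the vehicle of the batch for the 7 tested genes at each dose, with 95% intervals derived from the edgeR test statistic and dashed lines at 1.5-fold (0.585 on the log2 scale). SLC1A3 reaches -1.62 and -1.39 at the high doses, NES -1.21 under WESF, NFIA lies above 0 at both high doses, and the low dose points lie near 0.

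Counted together, 5 of the 7 tested genes passed at 500 µg/mL WESF (adjusted p under 0.05), 4 lower (NES, SOX9, SLC1A3 and CD44, each also beyond 1.5-fold and so differentially expressed genes, DEGs) and NFIA higher. This dose changed most of the transcriptome, as 68.9% of 13129 genes passed, 34.6% of them lower and 34.3% higher as shares of all genes tested, 24.1% were DEGs and 13% were DEGs that fell. The median log2 fold change was -0.69 over the 7 genes and 0.000823 over all genes tested. At 310 µg/mL EESF 5 of 7 passed against 58% of 13092 genes, 4 lower (28.7% of all genes) and NFIA higher (29.3%). SOX9 and SLC1A3 were DEGs, where 17.4% of all genes were DEGs and 9.17% DEGs that fell. The median was -0.45 over the 7 genes against 0.007 over all. A share of 5 in 7 is near the background of both high doses.

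At 100 µg/mL WESF SOX9 and SLC1A3 passed, both lower, 2 of 7 against 4.1% of 13112 genes (2.2% lower), and none was a DEG (0.275% of genes). At 62 µg/mL EESF SOX9 and SLC1A3 again passed, both lower, 2 of 7 against 15.4% of 12978 genes (8.48% lower), with no DEG (0.755%). None of the 7 passed at 20 µg/mL WESF, where edgeR called 0% of 13131 genes, with 470 at an unadjusted p under 0.05 and 1 gene by DESeq2. None passed at 12.4 µg/mL EESF, where 9.35% of 12892 genes did, and SLC1A3 and SOX9 had the lowest unadjusted p of the 7. The 3 doses of a batch share their vehicle libraries, so their values against the vehicle are not independent of each other. The comparison of the high with the low dose leaves the vehicle out but shares the high dose libraries, so it is not independent either. It gave 4 genes lower and NFIA higher for WESF (68.1% of 13100 genes passed, 34.1% lower), with NES at -1.19, SOX9 -0.64, SLC1A3 -1.503 and CD44 -0.70 on the log2 scale. For EESF 6 of 7 passed (57% of 13197 genes, 28.4% lower), with NES at -0.42, SOX9 -0.66, SLC1A3 -1.26, CD44 -0.43, NFIA 0.41 and VIM 0.13 (SE 0.0428, edgeR adjusted p = 0.0182). The VIM call was lost without replicate 2 of the high dose (0.11) or replicate 2 or 3 of the low dose (0.12 each). It was also lost with the replicate number as a block (0.13, edgeR adjusted p = 0.0605).

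The change at the high dose was set against that of the other extract in a fit with an interaction term over 12 libraries. Here the extract, its dose (500 against 310 µg/mL) and the batch cannot be told apart. NES fell less under EESF, with a difference of 0.76 (SE 0.205, edgeR adjusted p = 0.0128) on the log2 scale, and so did CD44, with 0.24 (SE 0.0629, adjusted p = 0.0106). With the replicate number as a block in all 12 libraries the call of CD44 was lost (edgeR adjusted p = 0.0531). With the block in the vehicles alone, the only groups that the number paired regularly, it passed (edgeR adjusted p = 0.00254). These 2 of 7 compare with 26% of 13376 genes, 12.7% with a difference above 0. For SLC1A3 the difference was 0.24 (95% interval 0.0291 to 0.442, adjusted p = 0.086), for SOX9 -0.13 (-0.319 to 0.0554, adjusted p = 0.29), for VIM 0.11 (-0.00671 to 0.228, adjusted p = 0.154), for GLUL -0.09 (-0.229 to 0.0443, adjusted p = 0.312) and for NFIA -0.07 (-0.331 to 0.187, adjusted p = 0.704). Without replicate 1 of the high dose of EESF, SLC1A3 (0.28) and VIM (0.14) passed as well.

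Vehicle B and vehicle A, both DMSO, gave no change of the 7 genes that passed (edgeR adjusted p = 1 for each). Of 13001 genes 0% passed, with 371 at an unadjusted p under 0.05 and 3 genes by DESeq2. The differences ran from -0.12 for NES to 0.07 for SOX9 on the log2 scale. Same-numbered vehicle libraries deviated together, so the 2 vehicle groups may not be independent of each other. With the number as a block VIM and CD44 passed, both at 0.03 (SE 0.00258 and 0.00293, edgeR adjusted p = 1.16e-08 and 1.4e-07), as did 3.68% of genes. Both SEs are smaller than the counting error of the summed counts, so these p-values do not measure the spread between independent libraries.

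Genes of the same families and pathways were read from lists, each beside the same shares of all genes tested. At 500 µg/mL WESF 34.3% of all genes rose and 34.6% fell, and at 310 µg/mL EESF 29.3% rose and 28.7% fell, so a list with counts near these shares shows nothing of its own. A gene that reached the cutoff of the filter on low counts (0.403 CPM for WESF, 0.411 for EESF) in all 3 libraries of only one of the groups compared was tested because of the group where it is high. The calls of such genes support nothing, so they are named with their counts alone, and each list is also counted without them. No median is given for a list with such a call. Each of the 7 tested genes of the 10 reached the cutoff in every library of both comparisons. Of 10 tested filament and filament-linker genes other than VIM, NES and GFAP, 6 fell and 1 rose at each high dose, with a median log2 fold change of -0.54 for WESF and -0.38 for EESF. NEFL (neurofilament light chain) fell by 2.09 and 1.92 on the log2 scale, KRT18 (keratin 18) by 1.42 and 0.67, and DST (dystonin, which links filaments to other structures) by 0.49 and 0.99. KRT8, the partner of KRT18 in filaments, rose by 0.20 and 0.31. LMNB1 and LMNB2, the B-type lamins, had values between -0.06 and 0.03 that did not pass. The nuclear lamin LMNA was the most abundant of the list.

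The next list held SOX and nuclear factor I relatives together with ZBTB20, which is in neither family. Of its 9 tested genes, 6 fell and 1 rose under WESF (34.6% and 34.3% of all genes) and 4 fell under EESF (28.7% of all genes). Of these falls 5 and 3 were left without SOX15, which reached the cutoff in all libraries of the vehicle alone, with 14 to 19 counts per library in vehicle A and 2 to 7 at 500 µg/mL WESF, and 12 to 14 in vehicle B and 8 to 15 at 310 µg/mL EESF. SOX5 fell by 1.07 and 1.43 on the log2 scale (SE 0.223 and 0.263). NFIX, the most abundant relative, fell by 0.41 and 0.44, and SOX4 by 1.00 and 0.68. NFIB rose by 0.53 under WESF (SE 0.0946, edgeR adjusted p = 8.79e-05) and was at 0.13 under EESF (adjusted p = 0.238).

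Of 17 tested glutamate and glutamine genes other than SLC1A3 and GLUL, 9 rose and 2 fell under WESF, where 34.3% and 34.6% of all genes did. Under EESF 7 rose, 3 fell and 7 did not pass, where 29.3% of all genes rose and 28.7% fell, with medians of 0.25 and 0.18. ASNS (asparagine synthetase) rose by 1.62 (SE 0.0485) and 1.19 (SE 0.0538) on the log2 scale, GFPT1 (the first enzyme of hexosamine synthesis) by 1.29 and 0.56, and SLC1A5 (a neutral amino acid transporter that carries glutamine) by 0.92 and 0.69. SLC38A2 (another glutamine transporter) fell by 0.68 under EESF and was at 0.08 under WESF (edgeR adjusted p = 0.165). SLC1A1, the neuronal type glutamate transporter, was at -0.08 under WESF (adjusted p = 0.294) and fell by 0.22 under EESF.

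Of 16 tested genes of hyaluronan or linked to CD44, 5 rose and 5 fell under WESF, and 6 of 15 rose and 3 fell under EESF, near the shares of all genes (34.3% and 34.6%, and 29.3% and 28.7%), with medians of 0.00524 and 0.125. HAS2 (a hyaluronan synthase) rose by 1.51 and 0.74 on the log2 scale, CEMIP (which breaks hyaluronan down) by 1.00 and 0.68, and MMP14 (a membrane protease) by 0.87 and 0.86. VCAN (versican, which binds hyaluronan) fell by 0.46 and 0.92, RDX (radixin, which links CD44 to actin) by 0.69 and 0.61, and CEMIP2 by 0.51 and 0.69. MSN (moesin) was the most abundant gene of the list. Of 10 relatives of FABP7, 3 were tested under WESF and 2 under EESF and none passed. CRABP2, their most abundant, was at -0.36 (edgeR adjusted p = 0.0751) and -0.08 (adjusted p = 0.683).

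Of 9 tested astrocyte markers outside the 10 genes, 2 rose and 3 fell under WESF, and 4 rose and 3 fell under EESF, with medians of 0.10 and 0.07. The shares of all genes to set beside this and the next 3 lists are 34.3% higher and 34.6% lower for WESF, and 29.3% and 28.7% for EESF. ALDOC (aldolase C) rose by 0.93 and 0.74 on the log2 scale and PAQR6 by 0.69 under each extract, while FGFR3 (a growth factor receptor) fell by 0.91 and 0.70. Of 10 tested neural stem markers 3 rose and 5 fell under WESF, and 0 rose and 5 fell under EESF. Without CXCR4 (a chemokine receptor), which reached the cutoff in the vehicle libraries alone, 4 fell under each extract. Its counts per library were 21 to 29 in vehicle A and 2 to 4 at 500 µg/mL WESF, and 15 to 31 in vehicle B and 4 to 10 at 310 µg/mL EESF. SALL2 fell by 1.298 and 0.75 on the log2 scale, and MSI2 (an RNA-binding protein) by 0.88 and 0.96. Of 12 tested reactive astrocyte genes 3 rose and 7 fell under WESF, and 3 rose and 4 fell under EESF. PTGS2 (cyclooxygenase 2) rose by 2.08 (SE 0.0482) and 1.079 (SE 0.057), and TGM1 rose by 1.10 under WESF, while PTX3 fell by 0.55 and 0.73 and CD109 by 0.34 and 0.68. Under EESF TGM1 reached the cutoff in all libraries of the high dose alone, with 4 to 10 counts per library in vehicle B and 18 to 30 at 310 µg/mL, and without it 2 genes rose. TIMP1 was the most abundant of these. Of 19 tested Notch genes 7 rose and 7 fell under WESF, and 3 rose and 8 fell under EESF. HES4 (a Notch target) rose by 1.11 under WESF. Under EESF it reached the cutoff in all libraries of the high dose alone, with 6 to 10 counts per library in vehicle B and 45 to 62 at 310 µg/mL, and without it 2 Notch genes rose. The ligand JAG1 fell by 0.14 and 0.64, and PSEN2 (a subunit of gamma-secretase) fell by 1.18 and 0.58. MAML3 and JAG2 changed under WESF, by 0.71 and -0.72, and were at -0.05 (edgeR adjusted p = 0.85) and -0.37 (adjusted p = 0.0735) under EESF.

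Markers of other cell types were counted in the same way, beside 68.9% of all genes that passed at 500 µg/mL WESF (34.3% higher, 34.6% lower) and 58% at 310 µg/mL EESF (29.3% higher, 28.7% lower). All 18 mesenchymal markers were tested, and 4 rose and 11 fell under WESF while 3 rose and 13 fell under EESF, with medians of -0.34 and -0.28. Their summed level was 20300, 20570 and 20060 CPM in vehicle A and 23340, 22050 and 22960 at 500 µg/mL WESF, and 20200, 20460 and 19830 in vehicle B and 22120, 22670 and 22450 at 310 µg/mL EESF. Each high dose library had a higher sum than any vehicle library of its batch, while most of the 18 genes fell. ZEB1 rose by 0.82 and 0.48 on the log2 scale, while ACTA2 (smooth muscle actin) fell by 1.02 and 0.80, SNAI2 by 0.99 and 0.46 and PDGFRB by 0.80 and 0.73. Their part in the falls of NES, SOX9, SLC1A3 and CD44 was not tested.

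Both microglial or immune markers that could be tested were lower at the high doses. PTPRC (CD45) fell by 2.255 and 2.38 on the log2 scale and CSF1R by 1.32 and 0.96. The summed level of the 10 markers went from 13.6 to 14.6 CPM in vehicle A to 3.47 to 3.81 at 500 µg/mL WESF and from 12.9 to 14.0 in vehicle B to 3.56 to 4.28 at 310 µg/mL EESF. PTPRC was the most abundant of them, and C1QA and TYROBP were at 0 in every library. Of the neuronal markers 2 of 7 tested rose and 4 fell under WESF, and 1 of 6 rose and 4 fell under EESF, where 68.9% and 58% of all genes passed. These shares also stand beside the counts of the lists that follow. SNAP25 fell by 1.67 and 1.10, MAP2 by 1.54 and 2.02 and SYT1 by 0.91 and 1.18, while DLG4 rose by 0.83 and 0.62. The other gene counted as a rise under WESF, RBFOX3, had 2 to 4 counts per vehicle A library and 12 to 18 at 500 µg/mL, so it reached the cutoff in the high dose libraries alone, and without it 1 gene rose. TUBB3 was their most abundant gene and DCX was at 0. Of the oligodendrocyte markers, 1 of 5 rose and 4 fell under WESF and 1 rose and 1 fell under EESF, with MBP at 0.89 and 0.55 and PDGFRA at -0.66 and -0.60. CNP was the most abundant of them and MOG was at 0. Of 4 tested endothelial markers 1 rose and 1 fell under WESF and 2 rose under EESF, with TIE1 at 0.80 and 0.72. PECAM1, the gene that fell under WESF, reached the cutoff in all libraries of vehicle A alone, with 27 to 31 counts per library there and 7 to 22 at 500 µg/mL, and was at -0.42 under EESF (edgeR adjusted p = 0.208). Of 2 tested epithelial markers CLDN4 rose by 1.37 and 1.35, and KRT7 fell by 0.61 under WESF and was at -0.09 under EESF (adjusted p = 0.193). The part of any of these markers in the changes of the 10 genes was not tested.

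The genes closest to each tested gene were found by Pearson correlation of log2 CPM over the 24 libraries, after subtracting the mean of each batch, among genes of at least 10 CPM on average. SLC1A3 was nearest to DENND2B and SLC4A2 (r = 0.99 for each), CD44 to PER3 (0.99) and PRSS23 (0.989), SOX9 to TRIM2 (0.984) and TLE4 (0.983), and NES to RHOBTB2 (0.945) and FARP1 (0.943). NFIA was nearest to CLTCL1 (0.865) and AGO3 (0.863), VIM to RUVBL1 (0.838) and MT2A (0.835), and GLUL to KLF9 (0.753) and SLC38A1 (0.734). The 24 points share their dose groups and libraries, and a search over 9548 or 9549 genes finds close neighbours readily, so these values are a description.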

How the data were processed

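RNA of 24 SW1783 libraries was sequenced with a directional kit. The authors deposited expected counts per gene, made with FastQC 0.11.9, Trim Galore 0.6.6, STAR 2.7.9a and RSEM 1.3.3 per the submitters' processing notes, with an Ensembl annotation of GRCh38, and the RSEM strand setting is not given in the sources used here. Of the values, 10.9% were not whole, and counts were rounded. Of 60675 genes, 56558 were in GENCODE release 44 and 19586 protein-coding genes (96.5% to 97.2% of counts) were kept. Replicates differed by more than sampling noise (chi-square per degree of freedom of 2.02 to 15.5), so none was counted as a copy of another.

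Each comparison was fitted in edgeR 4.0.16 (R 4.3.3), with TMM, filterByExpr and the quasi-likelihood test, two-sided, and Benjamini-Hochberg adjustment over all genes tested, in the 2 groups compared (4 for the difference between extracts). A gene passed at an adjusted p under 0.05 and was a DEG beyond 1.5-fold. As the test returns no SE, the SE was derived as the size of the log2 fold change over the square root of the F statistic. Intervals for fold changes were built from this SE. CPM used TMM over all 24 libraries. The scripts were tested on simulated data. Alternatives were DESeq2 1.42.0, all genes in place of the protein-coding ones, fits without the filter or with the size factors of DESeq2, all groups of a batch, a replicate block and leaving out each library. Replicate numbers did not regularly pair libraries within a batch (correlations of deviations of -0.491 to 0.236), although some same-numbered libraries were closer than others, as at the low doses. From the labels' numbers, they did pair the vehicles of the 2 batches (0.359 to 0.683).

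The 10 genes and all lists were chosen with earlier results of these data known. From each further list, the 2 largest rises and falls among DEGs of each high dose were named, or, with no DEG, the most abundant gene. Each tested gene has its 2 nearest genes by correlation. KRT8, LMNA, LMNB1, LMNB2, NFIX, NFIB, SOX4, SLC1A1, the most abundant genes and the markers at or near 0 were named after their values were seen. Some genes of the lists are counted but not reported here by name.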

Additional observations from a re-analysis of the deposited data

Results flagged for a closer look

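The change at the high dose differed between the extracts for 2 of the 7 tested genes of the 10, beside 26% of all genes tested (edgeR interaction term, EESF minus WESF on the log2 scale, adjusted p under 0.05). It also differed for 20 of 48 tested list genes. These were chosen for their size of change in the same high dose libraries or their abundance. Their share therefore cannot be set against the 26%. NES differed by 0.76 (adjusted p = 0.0128) and CD44 by 0.24 (adjusted p = 0.0106, and 0.0531 with a replicate block in all libraries). Differences above 0 were also found for KRT18 (0.75), PSEN2 (0.61), SNAP25 (0.57), SALL2 (0.55), KRT7 (0.53), SNAI2 (0.53) and ACTA2 (0.22), all of which had the lower value under WESF. Differences below 0 were found for PTGS2 (-0.9996), HAS2 (-0.76), SLC38A2 (-0.76), GFPT1 (-0.73), ASNS (-0.43), ZEB1 (-0.34), CEMIP (-0.32), SLC1A5 (-0.23) and DLG4 (-0.21), which had the higher value under WESF, and for DST (-0.50), JAG1 (-0.50), VCAN (-0.46) and CD109 (-0.34), which fell more under EESF. Extract, dose and batch cannot be told apart in these differences.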

How the results depend on the processing

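Of 889 values of the tested genes under an alternative, 841 kept their direction and their side of the threshold, 17 no longer passed, 8 newly passed and 23 changed sign. At the high doses against the vehicle, NES, SOX9, SLC1A3 and CD44 passed under each alternative run. Low counts limit GFAP, SOX2 and FABP7.

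With a replicate block, although the replicate number did not regularly pair libraries within a batch, the number of the 7 genes that passed went from 2 to 1 at the medium dose of WESF (SOX9 lost), from 0 to 1 at the low dose of EESF (SOX9 gained), and from 2 to 1 in the difference between the extracts (CD44 lost, edgeR adjusted p = 0.0531). In the vehicles, which the number pairs, it went from 0 to 2 (VIM and CD44, each with an SE below counting error). VIM in the high against the low dose of EESF was lost (0.13). With the block in the vehicles alone, added after the data were seen, NES and CD44 passed in the difference between the extracts (adjusted p = 0.00709 and 0.00254). The block changed no other call of these genes. The cause was not tested.

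Leaving out 1 library gave 1 to 2 genes at the medium dose of WESF, 1 to 2 at the medium dose of EESF, 0 to 1 at the low dose of EESF and 2 to 4 in the difference between the extracts. All 23 changes of sign were of small changes that had not passed, when a library was left out, and the ranges that follow are over those fits alone. For the high dose of WESF, VIM ranged from -0.0319 to 0.00693. For the medium dose of WESF, CD44 ranged from -0.0613 to 0.0188 and NFIA from -0.187 to 0.0937. For the low dose of WESF, NES ranged from -0.0873 to 0.0706, GLUL from -0.0353 to 0.0278 and CD44 from -0.0562 to 0.00901. For the medium dose of EESF, GLUL ranged from -0.022 to 0.0105 and CD44 from -0.0549 to 0.00409. For the low dose of EESF, NES ranged from -0.13 to 0.0566 and GLUL from -0.0135 to 0.0419. Between the vehicles, SLC1A3 ranged from -0.0298 to 0.0445, GLUL from -0.0243 to 0.00957, CD44 from -0.0049 to 0.0574 and NFIA from -0.0223 to 0.117.

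The number of all genes called moved more where few were called. At the medium dose of WESF it went from 537 to 185 with the block, to 72 without replicate 3 of the dose and to 1560 without vehicle A replicate 1. At the medium dose of EESF it went from 1997 to 791 without vehicle B replicate 2. At the low dose of EESF it went from 1206 to 770 with all groups of the batch in the fit, to 213 without vehicle B replicate 2 and to 2679 without vehicle B replicate 1. The difference between the extracts went from 3481 to 2245 with the block, and the vehicles from 0 to 478. At the low dose of WESF 1 gene was called by DESeq2 and 3 with no filter, and between the vehicles 3 and 4.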
